A study of Mus musculus with 9 samples.

Results

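Transcript levels of 9 cell cycle inhibitor and p53 pathway genes were examined in mouse knee joints. The genes were Cdkn1a, Cdkn1b, Cdkn2a, Cdkn2b, Cdkn2c, Trp53, Mdm2, Ccng1 and Gdf15, chosen by symbol in the GENCODE M21 annotation of GRCm38. Each symbol matched 1 of the 53379 gene IDs in the count tables, and all 9 were among the 17478 genes that passed the filter on low counts. Cdkn2a passed only through libraries of the virus groups, where its counts were higher. RNA sequencing had been done on 9 libraries in 3 groups of 3, all labelled as knee joints.

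In the PC2 group, male C57BL/6 mice had their anterior cruciate ligament cut at 8 weeks of age (ACLT, an operation that destabilises the knee and leads to osteoarthritis). After 1 week these knees were injected with a lentivirus expressing PC2, and the tissue was collected 8 weeks after injection. The Luc group had the same operation and schedule with a lentivirus expressing Luc. The Non surgery group had no operation according to its label, and the sources used here give neither an injection nor the age at collection for it. The promoter of the virus and the cells that took it up were not given either. Per the labels, the RNA of a treatment group was pooled and run as 3 technical repeats. The p-values below are therefore set against technical repeats alone, and variation among mice was not measured. Both comparisons with the Non surgery group also mix the operation with the virus, and these cannot be told apart.

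The transcription factor p53, encoded by Trp53, is held at low protein levels by the ubiquitin ligase MDM2 and is stabilised after DNA damage and other stress. It then switches on genes that stop the cell cycle, repair DNA or lead to cell death, and it also switches on Mdm2, which closes a feedback loop. CDK inhibitors stop cells from entering DNA synthesis. The INK4 proteins bind CDK4 and CDK6, while the Cip/Kip proteins act on a wider range of cyclin and CDK complexes. Cdkn2a, Cdkn2b and Cdkn1a are often used as markers of senescent cells, which accumulate in ageing and osteoarthritic joints. Because p53 is controlled mainly at the protein level, Trp53 transcripts are no measure of its activity.

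Cdkn1a, Ccng1 and Mdm2 are direct p53 targets. Their promoter windows are shown because all 3 transcripts fell in both virus groups against Non surgery and each window held the p53 motif, a choice made after values and sequences had been seen. Each window covers 250 bases before to 50 bases after a RefSeq transcription start (RefSeq, GRCm38.p6), read 5′ to 3′ on the strand of the gene. Capitals mark matches to the p53 decamer, a motif of 10 bases in which a CATG-like core is flanked by purines on its left and pyrimidines on its right, or to 2 such decamers in a row (a full site), in which 1 mismatch was allowed. The Cdkn1a window lies at chr17:29090729-29091028 on the plus strand, the Ccng1 window at chr11:40755237-40755536 on the minus strand and the Mdm2 window at chr10:117710709-117711008 on the minus strand.
Cdkn1a: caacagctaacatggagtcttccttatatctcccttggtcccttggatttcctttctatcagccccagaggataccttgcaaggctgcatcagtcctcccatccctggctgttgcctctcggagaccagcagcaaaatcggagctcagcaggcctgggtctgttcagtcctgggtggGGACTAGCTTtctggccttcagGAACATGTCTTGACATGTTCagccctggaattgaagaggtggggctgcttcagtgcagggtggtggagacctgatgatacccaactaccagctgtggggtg
Ccng1: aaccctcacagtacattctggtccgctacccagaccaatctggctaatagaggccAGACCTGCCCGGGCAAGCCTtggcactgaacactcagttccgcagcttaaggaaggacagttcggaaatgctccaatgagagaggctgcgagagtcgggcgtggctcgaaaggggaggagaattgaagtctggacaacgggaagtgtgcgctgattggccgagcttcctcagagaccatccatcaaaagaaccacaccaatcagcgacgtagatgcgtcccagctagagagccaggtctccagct
Mdm2: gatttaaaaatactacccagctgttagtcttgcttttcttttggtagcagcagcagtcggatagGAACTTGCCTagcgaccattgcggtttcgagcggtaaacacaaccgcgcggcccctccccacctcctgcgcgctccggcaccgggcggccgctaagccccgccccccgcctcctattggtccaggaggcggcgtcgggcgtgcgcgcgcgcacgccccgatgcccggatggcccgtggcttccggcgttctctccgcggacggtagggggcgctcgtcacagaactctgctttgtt

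The Cdkn1a window, which belongs to the upstream start of that gene, held 2 decamers in a row with at most 1 mismatch in 20 bases, starting 51 bases before the transcription start, and a separate decamer 73 bases before it. The Ccng1 window held such a full site starting 195 bases before the start. In the Mdm2 window there was a single decamer, 186 bases before the start; the well-known p53 response elements of Mdm2 lie in its first intron, outside this window. Trp53 had a single decamer 75 bases before its start. No decamer was found in the windows of the other 5 genes or in the window of the second Cdkn1a start. The 9 genes had 13 windows. Of 32851 promoter windows of the same length, counting both strands, 8.36% held a decamer and 29 windows, or 0.0883%, held a full site. The limit of 1 mismatch was set after the sequences had been seen. A match describes letters in a window and not binding.

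The libraries held 17835989 to 19004316 counts in genes, and the first principal component held 65.05% of the variance. In the marker lists, cartilage, bone, synovial and muscle genes were all present, with no marker gene at 0 in any group. Tissue markers differed between the groups. The summed level of 10 skeletal muscle markers was 27153 to 27205 CPM (read counts scaled to a common library size) in PC2, 22745 to 23195 CPM in Luc and 56390 to 58574 CPM in Non surgery libraries. The summed level of 9 cartilage markers was 7867 to 7993 CPM in PC2, 4861 to 4938 CPM in Luc and 901 to 992 CPM in Non surgery libraries. In whole tissue, fewer cells of a type, less RNA per cell and a larger share of RNA from other tissues cannot be told apart.

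Between the virus groups, 1 of the 9 genes changed. Gdf15 rose 1.94-fold in PC2 over Luc joints, 0 genes fell and 8 did not pass an adjusted p of 0.05 (edgeR quasi-likelihood test, Benjamini-Hochberg over all genes tested). Among all genes tested, 34.7% passed in this comparison, 16.1% higher and 18.6% lower, so the share of the 9 genes lay below the background. Against the Non surgery joints most of the 9 genes changed. In Luc joints Cdkn2a and Trp53 rose and Cdkn1a, Cdkn2c, Mdm2, Ccng1 and Gdf15 fell. That is 7 of 9, beside 58.8% of all genes (31.1% higher and 27.7% lower). In PC2 joints the same 7 genes moved in these directions and Cdkn2b rose as well. That is 8 of 9, beside 62.7% of all genes (31.5% higher and 31.2% lower). Both counts include Cdkn2a, which passed the filter on low counts only through the virus groups, where it was higher.

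Because technical spread is small, many small differences pass, and sizes were read beside a 2-fold limit. In Luc against Non surgery 4 of the 9 genes passed with at least a 2-fold change, namely Cdkn2a, Cdkn1a, Ccng1 and Gdf15, beside 15.7% of all genes. In PC2 against Non surgery the 4 were Cdkn2a, Cdkn2b, Cdkn1a and Ccng1, beside 16.4% of all genes. In PC2 against Luc there were 0 of 9, beside 3.31% of all genes. Cdkn1a and Cdkn2b lay near the 2-fold limit. Against Non surgery, the log2 fold change of Cdkn1a came to -0.857 in PC2 and -0.882 in Luc joints under other processing. With a library left out it came to -0.996 in PC2, and that of Cdkn2b to 0.811 in PC2, all under 2-fold. The libraries of both groups did not overlap for 3 genes in PC2 against Luc (48% of all genes), for 8 genes in Luc against Non surgery (62.9%) and for 8 genes in PC2 against Non surgery (66%). Cdkn2a is in each of these counts against Non surgery, of 2-fold changes and of libraries without overlap. Its passing of the filter favoured a rise there, so these counts are biased by it. The comparisons with Non surgery share those libraries, and PC2 against Luc shares a group with each, so their counts are not independent. The median size of a log2 fold change over the 9 genes was 0.08 in PC2 against Luc, 0.79 in Luc against Non surgery and 0.71 in PC2 against Non surgery. Over all genes tested it was 0.18, 0.33 and 0.37 in the same order of comparisons.

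**Figure D1:**
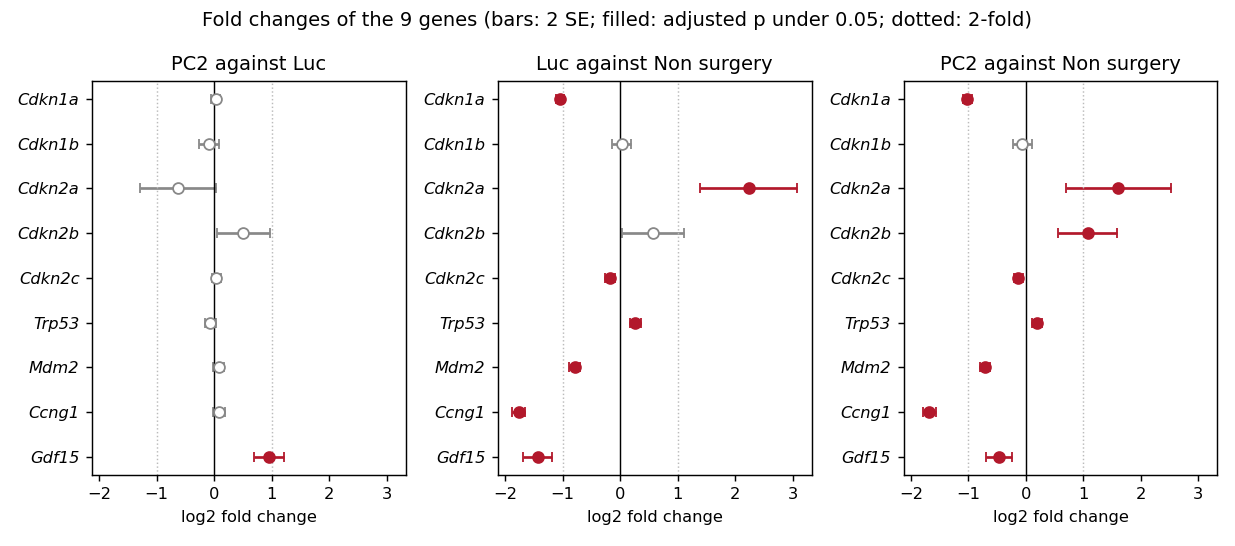
Log2 fold changes of the 9 genes (x axis) in the 3 comparisons (panels), as points with bars of 2 standard errors. Filled points had an adjusted p under 0.05 and dotted lines mark a 2-fold change. Gdf15 is the filled point in PC2 against Luc, while 7 and 8 points are filled in the panels against Non surgery.

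Trp53 (chromosome 11, 69580359 to 69591873, plus strand) was measured at 74.7, 76.9 and 78.1 CPM in PC2 libraries, 76.3, 83.1 and 81.2 CPM in Luc libraries and 67.5, 69.5 and 63.3 CPM in Non surgery libraries. Every library of the virus groups lay above every Non surgery library, and PC2 and Luc libraries overlapped. The rise was small, with a log2 fold change of 0.20 ± 0.0461 (SE) in PC2 (adjusted p = 0.00141) and 0.26 ± 0.0461 in Luc joints (adjusted p = 0.000109), both against Non surgery. Between PC2 and Luc the log2 fold change was -0.07 ± 0.0455 (adjusted p = 0.275), and an interval of 2 SE ran from 0.896-fold to 1.02-fold.

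Mdm2 (chromosome 10, 117688875 to 117710758, minus strand), which encodes the ubiquitin ligase of p53 and is itself a p53 target, went the other way. It had 88.0, 86.4 and 90.4 CPM in PC2 libraries, 85.3, 82.9 and 82.7 CPM in Luc libraries and 144, 135 and 154 CPM in Non surgery libraries. All Non surgery libraries stood clear above the other 6. Mdm2 fell by 0.71 ± 0.0464 on the log2 scale in PC2 joints (1.64-fold, adjusted p = 7.93e-10) and by 0.79 ± 0.0465 in Luc joints (1.73-fold, adjusted p = 2.13e-10), each against Non surgery. Although the 3 PC2 libraries were all above the 3 Luc libraries, that difference was 0.08 ± 0.0469 on the log2 scale and did not pass (adjusted p = 0.223).

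Ccng1 (chromosome 11, 40748552 to 40755311, minus strand) encodes cyclin G1, a p53 target that recruits protein phosphatase 2A to MDM2. It showed the largest fall of the 9 genes. Its level was 227, 210.2 and 212 CPM in PC2 libraries, 211, 200.3 and 201 CPM in Luc libraries and 754, 621 and 701 CPM in Non surgery libraries. The virus groups reached at most 227 CPM, and no Non surgery library was under 621 CPM. Ccng1 fell by 1.68 ± 0.0559 on the log2 scale in PC2 (3.2-fold, adjusted p = 1.09e-13) and by 1.76 ± 0.056 in Luc joints (3.39-fold, adjusted p = 6.14e-14). Counted from the lowest fold change, Ccng1 stood at percentile 2.16 of all genes tested in PC2 and at percentile 1.73 in Luc against Non surgery. Between PC2 and Luc the log2 fold change was 0.08 ± 0.055 (adjusted p = 0.257).

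Cdkn1a (chromosome 17, 29090976 to 29100727, plus strand) encodes p21, the Cip/Kip inhibitor through which p53 stops the cell cycle. It had 108, 105 and 111 CPM in PC2 libraries, 103, 106 and 109 CPM in Luc libraries and 223, 217 and 215 CPM in Non surgery libraries. The 6 libraries of the virus groups were intermixed and all lay far below the Non surgery libraries. Cdkn1a fell 2.02-fold in PC2 (log2 fold change -1.02 ± 0.0369, adjusted p = 3.53e-13) and 2.06-fold in Luc joints (-1.04 ± 0.037, adjusted p = 2.51e-13). PC2 and Luc differed by 0.03 ± 0.0372 on the log2 scale (adjusted p = 0.623), with an interval of 2 SE from 0.968-fold to 1.07-fold. The antisense gene AC167363.2 shares 273 of the 3553 exon bases of Cdkn1a (7.68%), and the other 8 genes shared 0 exon bases with another gene.

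Gdf15 (chromosome 8, 70629393 to 70632456, minus strand) encodes a secreted stress cytokine whose gene is induced by p53 and by the integrated stress response. It was the gene that passed between the virus groups, with 7.54, 7.46 and 8.08 CPM in PC2 libraries, 3.17, 4.65 and 4.10 CPM in Luc libraries and 10.3, 11.3 and 10.5 CPM in Non surgery libraries. The 3 groups formed 3 separate levels, lowest in Luc and highest in Non surgery. These values rest on 144 to 154 counts per PC2 library, 61 to 88 counts per Luc library and 172 to 196 counts per Non surgery library. Gdf15 rose by 0.95 ± 0.13 on the log2 scale in PC2 over Luc (adjusted p = 3.05e-05), at percentile 98.1 of all genes tested. Against Non surgery it fell 1.39-fold in PC2 (log2 fold change -0.47 ± 0.114, adjusted p = 0.00177) and 2.69-fold in Luc joints (-1.43 ± 0.126, adjusted p = 4.3e-08). Skeletal muscle markers had the same order of groups. Of these, 9 of 10 passed as higher in PC2 than in Luc at a median log2 fold change of 0.37. All 10 were lower in both virus groups than in Non surgery libraries. Summed markers of neutrophils and their precursors had this order too, with 7 of 8 passing as higher in PC2 than in Luc. Against Non surgery 8 of 8 fell in Luc, while 7 fell and 1 rose in PC2 joints. Among all genes tested, 16.1% passed as higher in PC2 than in Luc. Against Non surgery 27.7% fell in Luc and 31.2% in PC2 joints. The part of muscle or marrow content in the Gdf15 result was not tested.

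**Figure D2:**
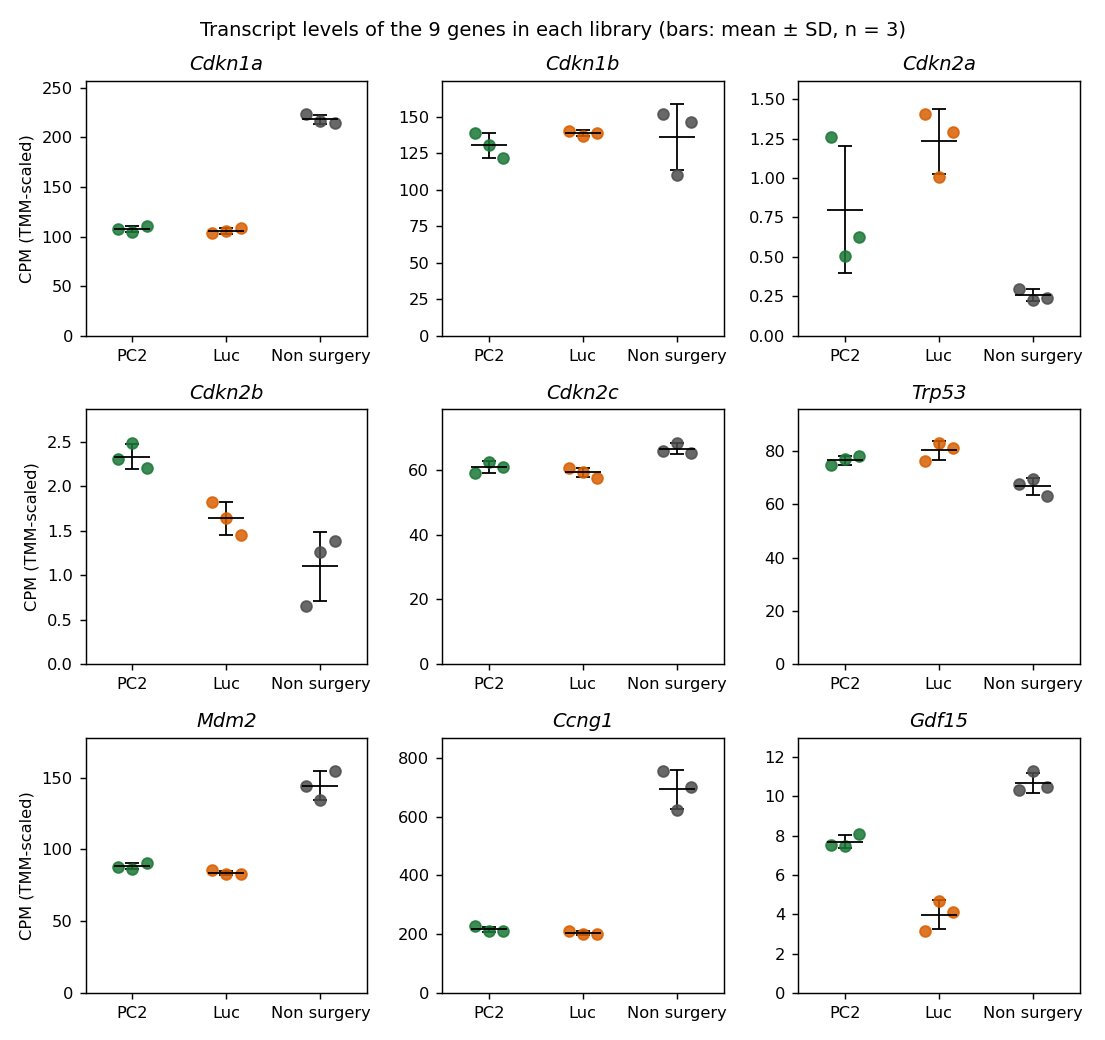
CPM of each of the 9 genes (y axes, linear and starting at 0) in the 3 libraries of PC2, Luc and Non surgery (x axis). Points are libraries, with the mean and SD of each group; Ccng1, Cdkn1a and Mdm2 are highest in Non surgery, Cdkn2a and Cdkn2b lowest there, and Gdf15 lies at 3 separate levels.

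The neighbouring INK4 genes Cdkn2a and Cdkn2b were scarce and were higher in virus than in Non surgery joints. The INK4 gene Cdkn2c was slightly lower on the TMM scale, and with scaling by library size only it passed in neither virus group. Cdkn2a (chromosome 4, 89274471 to 89294653, minus strand) encodes both p16Ink4a, an inhibitor of CDK4 and CDK6, and p19Arf, an inhibitor of MDM2, and counts per gene merge these transcripts. Its reads numbered 24, 10 and 12 in PC2 libraries, 27, 19 and 24 in Luc libraries and 5, 4 and 4 in Non surgery libraries, or 46, 70 and 13 counts by group. The Non surgery counts lay under the minimum count of 10, so Cdkn2a was tested only because of its higher counts in virus libraries. Passing the filter therefore favoured a rise over Non surgery for this gene. All libraries of the virus groups were above those of Non surgery, and PC2 replicate 1 lay among the Luc libraries. Cdkn2a rose 3.05-fold in PC2 (log2 fold change 1.61 ± 0.456, adjusted p = 0.0058) and 4.72-fold in Luc joints (2.24 ± 0.423, adjusted p = 0.000243), each against Non surgery. In PC2 against Luc the log2 fold change was -0.63 ± 0.33 (adjusted p = 0.155), with an interval of 2 SE from 0.41-fold to 1.02-fold. That comparison turned on 1 library, since without PC2 replicate 1 the log2 fold change was -1.11 and passed (adjusted p = 0.0263).

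Cdkn2b, the neighbour of Cdkn2a (chromosome 4, 89306299 to 89311039, minus strand), encodes p15Ink4b. It had 44, 49 and 42 counts in PC2 libraries, 35, 31 and 27 counts in Luc libraries and 11, 22 and 23 counts in Non surgery libraries. On the CPM scale this was 2.33 ± 0.143 in PC2, 1.64 ± 0.182 in Luc and 1.10 ± 0.388 in Non surgery (SD, n = 3). The 3 groups did not overlap, with PC2 highest and Non surgery lowest. Cdkn2b rose 2.11-fold in PC2 over Non surgery joints (log2 fold change 1.07 ± 0.255, adjusted p = 0.00158). Neither step in between passed, with 0.51 ± 0.233 for PC2 against Luc (adjusted p = 0.106) and 0.57 ± 0.269 for Luc against Non surgery (adjusted p = 0.0821). The Luc against Non surgery difference passed without Non surgery replicate 3 (0.75, adjusted p = 0.0488) and with scaling by library size only (0.73, adjusted p = 0.0274). Cdkn2a and Cdkn2b thus had their highest group means in different virus groups, Cdkn2a in Luc and Cdkn2b in PC2, but neither difference between PC2 and Luc passed. By mean summed CPM, B cell precursor and macrophage markers had the group order of Cdkn2a, and cartilage and bone markers that of Cdkn2b. Skeletal muscle, neutrophil and erythroid markers were highest in Non surgery. The part of tissue content in the rises of Cdkn2a and Cdkn2b was not tested.

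Cdkn2c (chromosome 4, 109660876 to 109667189, minus strand) encodes p18Ink4c and had many more reads than Cdkn2a or Cdkn2b. It had 58.8, 62.5 and 60.9 CPM in PC2 libraries, 60.4, 59.4 and 57.6 CPM in Luc libraries and 65.8, 68.3 and 65.2 CPM in Non surgery libraries. Non surgery libraries were the highest by a narrow margin. The fall was 1.09-fold in PC2 (log2 fold change -0.13 ± 0.0425, adjusted p = 0.0145) and 1.12-fold in Luc joints (-0.17 ± 0.0426, adjusted p = 0.0028). Neither call held with scaling by library size only, which gave 0.03 (adjusted p = 0.568) in PC2 and -0.0081 (adjusted p = 0.882) in Luc against Non surgery. The PC2 call was also lost without Non surgery replicate 2 (adjusted p = 0.0549) or without PC2 replicate 1 (adjusted p = 0.0773). PC2 against Luc gave 0.04 ± 0.0425 (adjusted p = 0.516).

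Cdkn1b (chromosome 6, 134920401 to 134925513, plus strand), which encodes the Cip/Kip inhibitor p27 that holds resting cells out of the cycle, passed in none of the comparisons. Its level was 139, 130.4 and 121 CPM in PC2 libraries, 140.3, 136 and 139 CPM in Luc libraries and 152, 110.0 and 146 CPM in Non surgery libraries. Non surgery replicate 2 was the lowest of all 9 libraries and the other Non surgery libraries were the highest. The log2 fold changes were -0.09 ± 0.0838 for PC2 against Luc (adjusted p = 0.446), 0.03 ± 0.084 for Luc against Non surgery (adjusted p = 0.783) and -0.06 ± 0.084 for PC2 against Non surgery (adjusted p = 0.556). Without Non surgery replicate 2, PC2 against Non surgery gave -0.19 and passed (adjusted p = 0.00124).

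Levels can be set against each other only per length of transcript, as CPM per kilobase of exon (RPKM). Ccng1 was the most abundant of the 9 genes in every group, at 61.6 ± 2.64 RPKM in PC2, 58.1 ± 1.66 RPKM in Luc and 197 ± 19.1 RPKM in Non surgery (SD, n = 3). In PC2 libraries Cdkn1a (30.4 RPKM) and Cdkn1b (28.6 RPKM) came next and overlapped each other, followed by Cdkn2c (22.6), Trp53 (18.9) and Mdm2 (17.4), all in RPKM and without overlap between neighbours. Luc libraries had the same sequence, except that Cdkn1b stood level with Cdkn1a. In Non surgery libraries Cdkn1a, at 61.4 RPKM, was clear of Cdkn1b (29.8 RPKM), and Mdm2 (28.4 RPKM) overlapped Cdkn1b and stood above Cdkn2c (24.7 RPKM) and Trp53 (16.5 RPKM). Gdf15 had 4.15 RPKM in PC2, 2.15 RPKM in Luc and 5.77 RPKM in Non surgery. Last came Cdkn2b, with 1.68 RPKM in PC2, 1.18 RPKM in Luc and 0.793 RPKM in Non surgery, and Cdkn2a, with 0.681 RPKM in PC2, 1.05 RPKM in Luc and 0.219 RPKM in Non surgery. The last pair overlapped in Luc libraries alone.

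Other p53 targets were examined in 2 lists. Of 14 targets that act in cell death and metabolism, 11 fell and 1 rose in PC2 against Non surgery, and 10 fell and 1 rose in Luc against Non surgery. Among all genes 31.2% fell and 31.5% rose in PC2, and 27.7% fell and 31.1% rose in Luc joints. The median log2 fold change was -0.89 in PC2 and -0.55 in Luc joints, where the median of all genes tested was 0.01 and 0.02. With scaling by library size only, 11 fell and 3 rose in PC2, and 9 fell and 2 rose in Luc joints. The medians were then -0.73 in PC2 and -0.39 in Luc joints. Bbc3, which encodes the pro-death BCL2 family protein PUMA, fell 4.24-fold in Luc joints, to 7.49 ± 0.571 CPM against 31.8 ± 2.39 CPM in Non surgery (adjusted p = 2.8e-12). Aen, a nuclease of apoptosis, fell 3.37-fold in PC2 joints, to 38.2 ± 0.746 CPM against 129 ± 3.51 CPM (adjusted p = 1.32e-15). It fell 3.81-fold in Luc joints (adjusted p = 4.48e-16). Bax, the effector of mitochondrial permeability in cell death, fell 2.67-fold in Luc joints (adjusted p = 2.5e-10), with 12.2% of its exon bases shared with Gm45808. Trp53inp1 fell 3.08-fold and Eda2r, a receptor of the TNF receptor family, 3.13-fold in PC2 against Non surgery (adjusted p = 3.49e-12 and 2.31e-12). Dram1, an autophagy gene chosen after its values were seen, was the member that rose, by 0.66 in PC2 and 0.49 in Luc joints on the log2 scale.

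The 13 targets that act in cell cycle arrest and DNA repair were divided. In PC2 against Non surgery 6 fell and 3 rose, a share near the 62.7% of all genes that passed, and in Luc against Non surgery 5 fell and 5 rose, beside 58.8% of all genes. With scaling by library size only, 5 fell and 6 rose in each of these comparisons. Their medians were -0.10 in PC2 and -0.0061 in Luc joints and turned positive, to 0.06 and 0.15, with scaling by library size only. Sesn2, a stress-induced inhibitor of mTORC1 signalling, fell 3.14-fold in PC2 joints, to 21.3 ± 0.413 CPM against 66.8 ± 3.9 CPM in Non surgery (adjusted p = 1.33e-12), and 3.33-fold in Luc joints (adjusted p = 7.35e-13). Phlda3, which holds back AKT signalling, fell 2.54-fold in PC2 and 2.3-fold in Luc joints (adjusted p = 4.29e-14 and 1.75e-13). Zmat3, an RNA-binding protein, fell 2.21-fold in Luc joints (adjusted p = 2.57e-10), and Polk, a DNA polymerase that copies damaged templates, fell 2.56-fold in PC2 joints (adjusted p = 4.02e-12). The polo-like kinase genes Plk2 and Plk3 (both chosen here after their values were seen) rose in Luc over Non surgery joints, by 0.81 and 1.04 on the log2 scale.

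**Figure D3:**
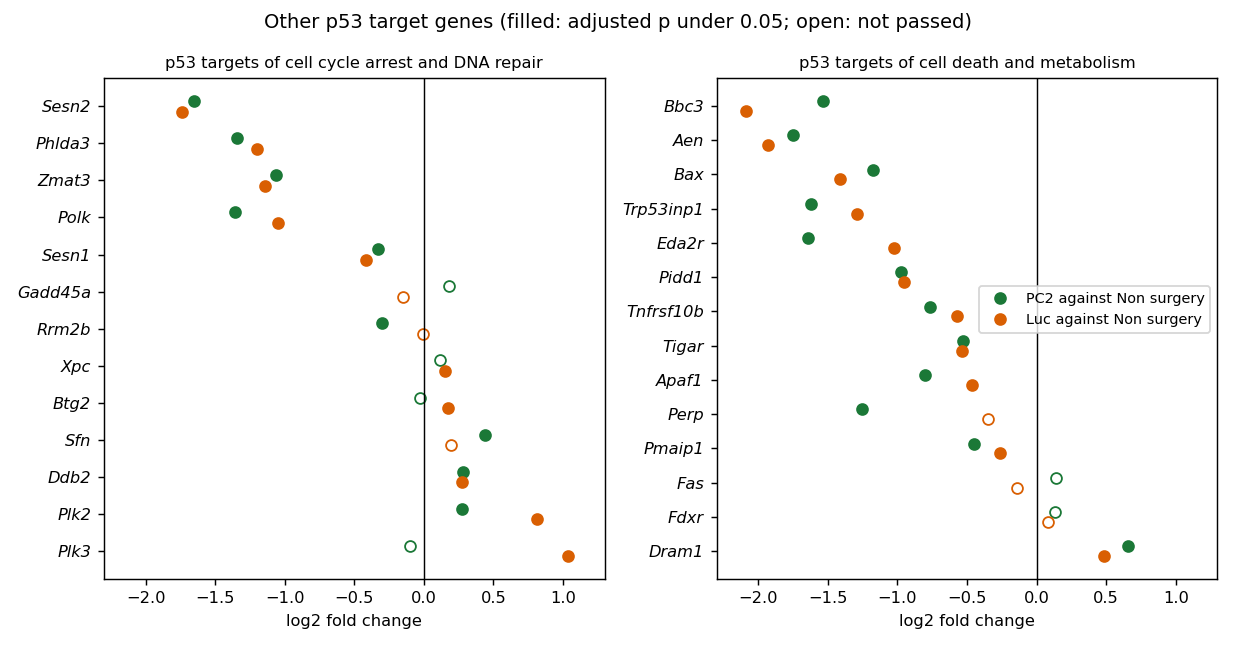
Log2 fold changes (x axes) of 27 other p53 target genes against Non surgery in PC2 (green) and Luc joints (orange), ordered by the Luc value within 2 lists. Filled points had an adjusted p under 0.05; both colours share the Non surgery libraries, and most death and metabolism genes lie left of 0 in both.

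Between PC2 and Luc these target lists changed in both directions. In the arrest and repair list 6 of 13 fell and 1 rose, beside 18.6% lower and 16.1% higher among all genes. Plk3, a stress-responsive kinase, fell 2.19-fold, to 12.8 ± 1.41 CPM in PC2 against 28.1 ± 2.17 CPM in Luc (adjusted p = 4.39e-08), and Plk2 fell 1.45-fold (adjusted p = 6.25e-06). Gadd45a, a sensor of DNA damage, rose 1.26-fold (adjusted p = 0.00535), with 19.1% of its exon bases shared with an antisense gene. In the death and metabolism list 4 rose and 4 fell of 14. Bbc3 rose 1.46-fold, to 11.0 ± 0.845 CPM in PC2 against 7.49 ± 0.571 CPM in Luc (adjusted p = 0.000377). Eda2r fell 1.54-fold (adjusted p = 6.1e-06). Perp, a membrane protein of p53-dependent cell death, fell 1.87-fold at a low level, to 2.09 ± 0.617 CPM in PC2 against 3.93 ± 1.38 CPM in Luc (adjusted p = 0.0143), and this call was lost when PC2 replicate 1 (adjusted p = 0.0702), Luc replicate 2 (0.0762) or Luc replicate 3 (0.0665) was left out.

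Of 12 regulators of p53, 0 rose and 5 fell in PC2 against Luc, beside 16.1% higher and 18.6% lower among all genes. In either direction the share was near the 34.7% of all genes that passed. The largest falls were those of the damage-sensing kinases Atm, 1.89-fold to 11.8 ± 2.09 CPM against 22.3 ± 0.73 CPM in Luc (adjusted p = 2.98e-06), and Atr, 1.64-fold to 11.6 ± 0.692 CPM against 19.1 ± 0.843 CPM (adjusted p = 3.67e-06). Trp53bp1, an adaptor in DNA break repair, fell 1.17-fold (adjusted p = 0.00564), with 15% of its exon bases shared with Tubgcp4. Against Non surgery, 8 fell and 1 rose in PC2 joints, beside 31.2% lower and 31.5% higher among all genes. In Luc joints 4 fell and 2 rose, beside 27.7% and 31.1% of all genes. The counts of regulators became 5 fell and 3 rose in PC2, and 3 fell and 5 rose in Luc, with scaling by library size only. Hipk2, a kinase that phosphorylates p53, fell 2.54-fold in PC2 and 2.32-fold in Luc joints (adjusted p = 4.41e-14 and 1.61e-13). Mdm4, the relative of Mdm2 that also restrains p53, fell 1.84-fold in PC2, to 177 ± 3.09 CPM against 325.5 ± 3.11 CPM in Non surgery (adjusted p = 2.33e-13), and 1.57-fold in Luc joints (adjusted p = 1.2e-11).

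Beside the 9 genes, the CDK inhibitor families hold Cdkn1c and Cdkn2d. Cdkn1c, which encodes p57, rose 1.37-fold in PC2 over Luc, to 12.7 ± 1.13 CPM against 9.26 ± 1.32 CPM (adjusted p = 0.00413), with 30.7% of its exon bases shared with the antisense gene Gm44732. Cdkn2d, which encodes p19Ink4d, fell 1.31-fold in PC2 and 1.4-fold in Luc joints against Non surgery (adjusted p = 2.11e-06 and 1.57e-07). Of 13 cyclins, CDKs and RB family genes, 7 fell and 0 rose in PC2 against Luc, beside 18.6% lower and 16.1% higher among all genes. Their median log2 fold change was -0.21. Rb1, the retinoblastoma protein on which INK4 inhibition converges, fell 1.42-fold (adjusted p = 2.47e-06), and Ccnd1, the cyclin D1 partner of CDK4 and CDK6, fell 1.33-fold (adjusted p = 0.000251). For Rb1 and Ccnd1, 14.9% and 23.4% of exon bases are shared with other genes. In Luc against Non surgery 7 of the 13 rose and 4 fell, beside 31.1% higher and 27.7% lower among all genes. There Ccnd1 was up 1.7-fold and Ccne1, the cyclin of entry into DNA synthesis, up 1.67-fold (adjusted p = 1.16e-07 and 1.58e-08). In PC2 against Non surgery 6 rose and 5 fell, beside 31.5% higher and 31.2% lower among all genes. Here Ccne1 was up 1.6-fold and Rb1 down 1.82-fold (adjusted p = 4.55e-08 and 4.76e-10).

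The genes of proliferation were divided. Of 15, 8 fell and 2 rose in PC2 against Luc, beside 18.6% lower and 16.1% higher among all genes. In Luc against Non surgery 8 fell and 7 rose, beside 27.7% and 31.1% of all genes. In PC2 against Non surgery 7 fell and 4 rose, beside 31.2% and 31.5%. With scaling by library size only, the split against Non surgery became 6 fell and 8 rose in PC2 and 6 fell and 7 rose in Luc joints. Median-of-ratios factors gave 7 fell and 3 rose in PC2 and 8 fell and 5 rose in Luc joints. Mki67, the marker of cycling cells, had 723 ± 8.55 CPM in PC2, 950 ± 2.78 CPM in Luc and 1342 ± 21.8 CPM in Non surgery libraries (SD, n = 3), and all 3 differences passed. Birc5, the mitotic protein survivin, rose 1.25-fold in PC2 over Luc (adjusted p = 3.27e-06). Marrow cells are part of a whole joint, and 8 markers of neutrophils and their precursors summed to 10958 to 11114 CPM in PC2, 9828 to 10395 CPM in Luc and 12338 to 12746 CPM in Non surgery libraries. The 8 B cell precursor markers summed to 165 to 166 CPM in PC2, 242 to 250.4 CPM in Luc and 91.3 to 94.1 CPM in Non surgery libraries. All 8 of these fell in PC2 against Luc, with a median log2 fold change of -0.67, and all 8 rose in both virus groups against Non surgery. The 6 erythroid markers summed to 8251 to 8908 CPM in PC2, 8128 to 9315 CPM in Luc and 13844 to 14889 CPM in Non surgery libraries, and all 6 fell in both virus groups against Non surgery. The part of marrow content in the values of proliferation genes was not tested.

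Gdf15 is also a gene of the integrated stress response, and the genes of that list were divided in PC2 against Luc. Of 11 tested genes, 3 rose and 3 fell, beside 16.1% higher and 18.6% lower among all genes. Mthfd2, a mitochondrial folate enzyme, rose 1.34-fold (adjusted p = 3.96e-05), Atf3, a stress-induced transcription factor, fell 2.76-fold, to 23.2 ± 3.43 CPM against 63.9 ± 0.585 CPM in Luc (adjusted p = 4.57e-10), and Chac1, a glutathione-degrading enzyme, fell 1.66-fold (adjusted p = 8.13e-05). Atf4 and Ddit3, chosen here after their values were seen, rose by 0.198 and 0.217 on the log2 scale (adjusted p = 0.00027 and 0.0284). Vldlr, chosen in the same way, fell, with a log2 fold change of -0.185 (adjusted p = 0.00911). Fgf21, the other stress hormone in the list, had at most 1 count in a library and was not tested. Against Non surgery 7 fell and 1 rose in both PC2 and Luc joints. Among all genes 31.2% fell and 31.5% rose in PC2, and 27.7% fell and 31.1% rose in Luc joints. Vldlr, a lipoprotein receptor, fell 2.27-fold in PC2 and 2-fold in Luc joints, and Asns, asparagine synthetase, fell 1.85-fold in Luc joints (adjusted p = 2.57e-12, 2.18e-11 and 8.3e-11).

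Among the 8 pathway lists, FoxO and glucocorticoid-responsive genes had the largest median change in both comparisons with Non surgery. FoxO factors are known activators of Cdkn1b, and the glucocorticoid receptor works with them in fasting and muscle wasting. Of 13 genes, 12 fell and 0 rose in PC2 against Non surgery, with a median log2 fold change of -1.63. In Luc against Non surgery 11 fell and 0 rose, with a median of -1.38. Among all genes 31.2% fell and 31.5% rose in PC2, and 27.7% fell and 31.1% rose in Luc joints. In PC2 against Luc 8 fell and 1 rose, with a median of -0.25, beside 18.6% lower and 16.1% higher among all genes. Pdk4, the kinase that shuts off pyruvate dehydrogenase in fasting, had 48.5 ± 2.28 CPM in PC2, 253 ± 1.25 CPM in Luc and 2253 ± 37 CPM in Non surgery libraries (SD, n = 3). It fell 46.4-fold in PC2 and 8.89-fold in Luc joints against Non surgery (adjusted p = 1.01e-21 and 1.71e-19), and 5.22-fold in PC2 against Luc (adjusted p = 1.69e-17). The receptor chaperone gene Fkbp5 fell 4.72-fold in Luc joints, and the muscle ubiquitin ligase gene Trim63 5.16-fold in PC2 joints, each against Non surgery (adjusted p = 4.16e-16 and 3.29e-17). Most of these genes are active in skeletal muscle, whose 10 markers fell in both comparisons at a median of -1.08 in PC2 and -1.24 in Luc joints. The part of muscle content in the falls of this list, of the other p53 targets, of Ccng1, of Cdkn1a and of Mdm2 was not tested.

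**Figure D4:**
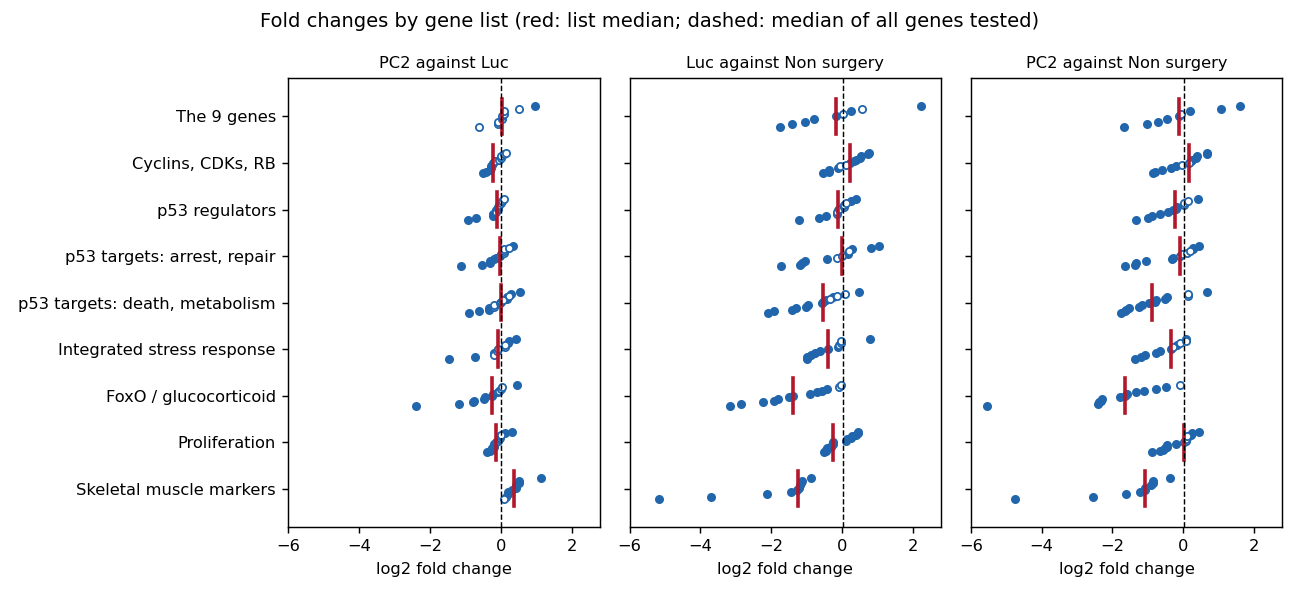
Log2 fold changes (x axes) of the 9 genes, 7 pathway lists and the skeletal muscle markers in the 3 comparisons (panels). Each point is a gene, filled where the adjusted p was under 0.05; red ticks are list medians and the dashed line is the median of all genes tested. All rows except cyclins, CDKs and RB genes and proliferation genes have medians left of that line in both panels against Non surgery. The medians of death and metabolism targets, FoxO and glucocorticoid-responsive genes and muscle markers lie furthest left there.

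For each of the 9 genes, the genes with the most similar profile were found as those with the smallest root mean square distance in centred log2 CPM over the 9 libraries, among the 11617 other genes with a mean of at least 5 CPM (11618 for Cdkn2a and Cdkn2b). The nearest to Ccng1 were Klf15, a glucocorticoid-induced transcription factor, and Ttn and Cmya5, which encode the muscle proteins titin and myospryn, at distances of 0.0816, 0.0843 and 0.0862. The nearest to Cdkn1a were Slc25a12, a mitochondrial aspartate and glutamate carrier, Adssl1, the muscle adenylosuccinate synthase, and Phkb, a subunit of phosphorylase kinase, at 0.0358 to 0.0424. Mdm2 lay nearest to Dld, a subunit of the mitochondrial dehydrogenase complexes, Atl2 and Mlf1, at 0.037 to 0.0422. Gdf15 lay nearest to Dhrs7c, a gene of muscle sarcoplasmic reticulum, Hist1h2be and Mpp3, at 0.129 to 0.159. For Trp53 the nearest were Lasp1, Myo9b and Rab8a at 0.0205 to 0.0359, and for Cdkn2c they were Asna1, Patz1 and Limk2 at 0.027 to 0.0292. Cdkn1b was nearest to Usp1, Hnrnph2 and Slc35a3 at 0.0525 to 0.0547. The scarce Cdkn2b and Cdkn2a had looser neighbours. For Cdkn2b these were Il11ra1, Pde1a and Ebpl at 0.202 to 0.207, and for Cdkn2a Edil3, Vgll3 and P2ry10b at 0.261 to 0.281.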

How the data were processed

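Raw read counts per Ensembl gene were deposited by the authors, in a table for each library of 53379 gene IDs. The 5 closing summary lines stayed out of all totals. HISAT2, HTSeq, DESeq2 and mm10 are named in the submitters' processing notes. The sources used here give no versions, annotation release or strand setting. Without strand, reads of overlapping genes cannot be assigned with certainty.

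All 9 libraries entered 1 edgeR 4.0.16 quasi-likelihood fit (R 4.3.3) with a group factor, TMM factors and filterByExpr (minimum count 10). Tests were two-sided with Benjamini-Hochberg adjustment over the 17478 genes tested, and changes were called at an adjusted p under 0.05. CPM used TMM-scaled library sizes, and RPKM the merged exon length in GENCODE M21. The fit was tested on simulated counts. Within groups, chi-square per degree of freedom was 3.94 to 8.67, above counting noise, so no table was a copy of another.

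The 9 genes, the 8 pathway lists (93 of 94 genes tested) and the 9 marker lists were chosen with earlier results of these data known. Named from the lists were up to 3 called genes per comparison by size of change and 3 nearest profiles per gene. Some genes that the rule named are not reported here. With library size as the only scaling, the median log2 fold change of all genes was 0.168 in PC2 and 0.185 in Luc against Non surgery. The split of genes became 7607 higher and 3761 lower in PC2, against 5505 and 5447 on the TMM scale, and 7754 higher and 3304 lower in Luc, against 5431 and 4848. Alternatives were median-of-ratios factors, library size only, DESeq2 1.42.0, no filter, the compared groups alone, a replicate block and each library left out.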

Additional observations from a re-analysis of the deposited data

How the results depend on the processing

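The count of the 9 genes called stayed at 7 to 8 in Luc against Non surgery and in PC2 against Non surgery, and at 1 to 2 in PC2 against Luc, when each library was left out in turn. It was 2 in PC2 against Luc without PC2 replicate 1. With the replicate block the counts were 1 in PC2 against Luc, 7 in Luc against Non surgery and 8 in PC2 against Non surgery, and the block changed no call of the 9 genes. Deviations from the group mean correlated over 0.1 in 4 of 9 same-numbered pairs (range -0.169 to 0.165). Of the 9 libraries, 5 correlated best with a library of their own number. With so few libraries these values do not settle whether the numbers pair the libraries. Of 404 fold changes of the 9 genes under alternatives, 396 kept direction and side of the threshold. The fold change of Cdkn2c in PC2 against Non surgery reversed to 0.029 with scaling by library size only. The other exceptions stand with Cdkn2a, Cdkn2b, Cdkn2c and Cdkn1b above. The cause was not tested. Depth limits Cdkn2a and Cdkn2b, at 4 to 49 counts per library.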
